A study of Mus musculus with 77 samples.

Results

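Phenobarbital at 150 ppm was compared with the phenobarbital controls in 8 of the 77 samples of the series, 4 samples from livers of male B6C3F1 mice given 150 ppm for 7 days and 4 given 0 ppm for the same 7 days. B6C3F1 mice are the hybrid offspring of C57BL/6 and C3H parents, and no group carried an engineered allele. The members were taken from the labels of dose and compound, not from measured values, and all genes were examined. The series also holds phenobarbital at 75, 300 and 600 ppm with 4 samples each, and 3 phthalate esters with their own 10 controls. The labels give doses in ppm without a medium and do not state how many animals each sample came from, so every p-value rests on differences among samples that may be technical repeats. Each sample carries a number and a letter of unstated meaning, 41A, 82B, 12C and 12D for the controls and 2B, 2C, 89C and 89B at 150 ppm.

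Phenobarbital is a barbiturate that acts on liver cells through the constitutive androstane receptor, CAR (gene Nr1i3). CAR is held in the cytoplasm of hepatocytes, moves to the nucleus after phenobarbital treatment, and binds as a heterodimer with RXR to enhancers of genes for drug-metabolising enzymes and transporters. In mouse liver the cytochrome P450 gene Cyp2b10 is its classical target, and hepatocytes around the central vein respond most. PXR, a related receptor best known for Cyp3a11, shares many target genes with CAR.

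The control arrays were dimmer than the treated ones. Mean bead signal was 132 on control 41A, 220 on 82B, 306 on 12C and 332 on 12D, against 344 to 406 on the 4 arrays at 150 ppm. Genes detected above background made up 36.9% to 41.1% of all on the control arrays and 43.6% to 45.8% at 150 ppm, so the groups did not overlap in either measure. Low signal therefore moved with the control group, and its part in the results was not tested beyond the values given with other controls. For that reason the calls were repeated without controls 41A and 82B, the dimmest of the 4, and against 7 of the 10 controls of the phthalate experiments, without the 3 numbered 32. Mean signal ran from 243 to 471 over the 7 used, and was 380, 209 and 374 on 32A, 32C and 32B, the 3 left out.

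Of 11324 genes tested, 540 were higher and 778 lower at 150 ppm than in the phenobarbital controls, which is 11.6% of genes called, 4.77% higher and 6.87% lower (limma, Benjamini-Hochberg adjusted p under 0.05). The samples of both groups did not overlap for 439 of the 540 and 572 of the 778, and over all genes tested for 18.3%. Without controls 41A and 82B, 4.32% of genes were called, 154 higher and 335 lower, and 125 of the 540 and 262 of the 778 were among them. Against the 7 phthalate controls, 0.203% were called, 16 higher and 7 lower, and these held 16 of the 540 and 3 of the 778. The phenobarbital controls themselves differed from those phthalate controls in 5.28% of genes, 414 higher and 184 lower. Among the called genes the median size of the change fell from 0.75 to 0.32 on the log2 scale for the rises and from 0.63 to 0.21 for the falls when the phthalate controls replaced the phenobarbital controls. The split into rises and falls also depended on scaling: with each array centred on its median 5088 genes were higher and 180 lower, and the median of all genes rose by 0.55.

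**Figure D1:**
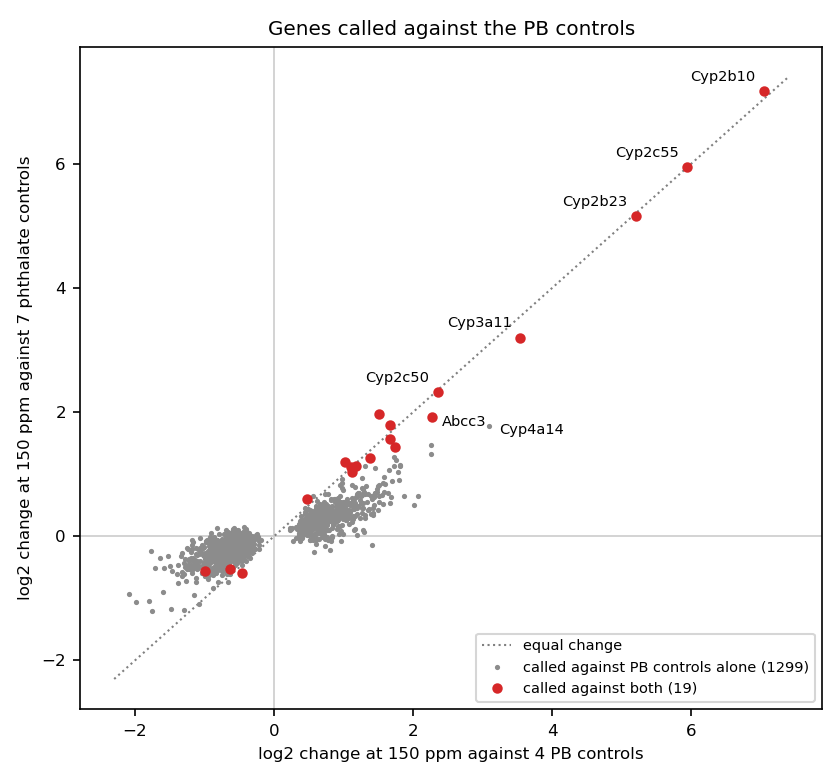
Each point is a gene called at 150 ppm against the 4 phenobarbital controls, with its log2 change against them on the horizontal axis and against 7 phthalate controls on the vertical axis, and the dotted line marks equal change. Both axes share the 4 treated samples. The 19 genes called against both are in red, and the others, in grey, lie mostly nearer 0 on the vertical axis.

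With every set of controls 14 rises and 2 falls were called: against all 4 phenobarbital controls, without 41A and 82B, without 12C and 12D, and against the phthalate controls. The rises were 9 P450 genes (Cyp2b10, Cyp2c55, Cyp2b23, Cyp3a11, Cyp2c50, Cyp2d12, Cyp2c37, Cyp2a5 and Cyp1a2), the transporter Abcc3, the glutathione transferase Gstt3, the secreted CCN family protein Ccn4, the lipase-related Pnliprp1 and the unnamed transcript 1700067K01Rik. The falls were Tmem234 and Ddx3y. Mycl and Dtx4 (higher) and BC004728 (lower) were also called against the phthalate controls but not without 41A and 82B. The 19 genes were named after their values were seen where no earlier rule named them. Values below are normalized log2 intensities, in which a difference of 1 is a change of 2-fold, and a level compares samples for a gene, not genes with each other.

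**Figure D2:**
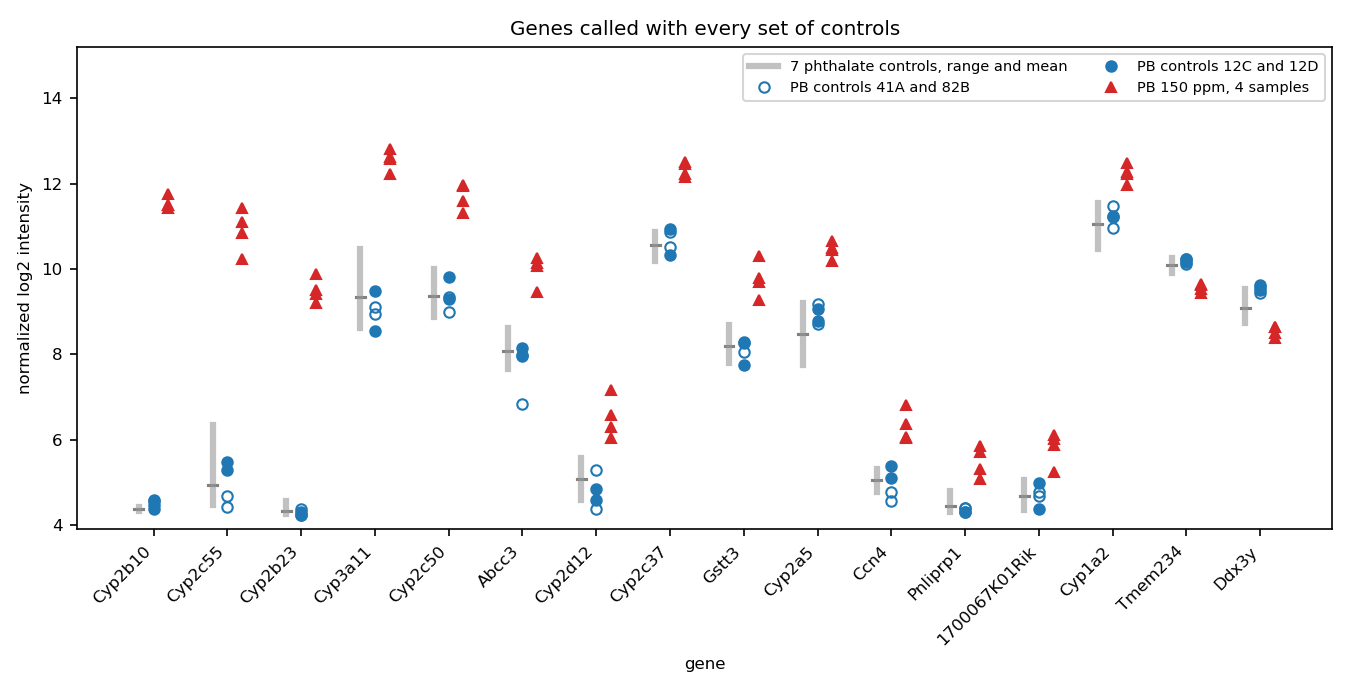
Normalized log2 intensity of the 16 genes called with every set of controls, with 1 point per sample: open circles for phenobarbital controls 41A and 82B, filled circles for 12C and 12D, and red triangles for the 4 samples at 150 ppm. Grey bars span the 7 phthalate controls with a tick at their mean. In each gene the triangles lie clear of the 4 phenobarbital controls.

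Cyp2b10, the P450 gene by which phenobarbital induction is usually measured, stood highest among all changes. Its level was 11.49, 11.43, 11.75 and 11.50 in samples 2B, 2C, 89C and 89B, and 4.46, 4.56, 4.59 and 4.37 in controls 41A, 82B, 12C and 12D. It was not above background in any control, so the rise is a bound of at least 121-fold (log2 change 7.05 ± 0.28 SE, adjusted p = 2.57e-30 by limma, higher in 4 of 4 samples). The size depends on how the background was treated, with log2 changes of 4.87 to 7.10 over 5 scalings, the lowest without background correction. With 1 sample left out or with the other sets of controls it ran from 6.98 to 7.17. The 7 phthalate controls ran from 4.33 to 4.43.

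Cyp2b23, another gene of the Cyp2b cluster on chromosome 7, also rose. It measured 9.50, 9.40, 9.88 and 9.21 at 150 ppm against 4.37, 4.24, 4.31 and 4.25 in the controls, and again none of the controls was above background. The rise was at least 29.7-fold (log2 change 5.21 ± 0.42 SE, adjusted p = 7.72e-15 by limma), with log2 changes of 2.88 to 5.22 over 5 scalings. Cyp2b9 and Cyp2b13, which are higher in female than in male mouse liver, did not pass the test. Cyp2b9 read 4.52, 5.36, 4.39 and 4.40 at 150 ppm and 4.31 to 4.36 in the controls (log2 change 0.34 ± 0.48 SE, adjusted p = 0.683 by limma). All 4 treated samples lay above the controls, and 2C stood furthest above them. Cyp2b13 changed by 0.10 ± 0.11 SE. These paralogs were named after their values were seen, and hybridisation of a probe to more than 1 of the 4 was not tested.

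The promoters of both induced genes are shown with that of Cyp2b9, the related gene that was not called, as the 250 bases before each start site in RefSeq on GRCm38.p6, 5′ to 3′ on the gene's strand. Cyp2b10 lies at chr7:25897408-25897657 (+), Cyp2b23 at chr7:26686431-26686680 (-) and Cyp2b9 at chr7:26173159-26173408 (+). Capitals mark the longest run of letters that Cyp2b10 and Cyp2b23 share, 34 bases that begin 72 bases before the start of Cyp2b10 and 99 before that of Cyp2b23.
Cyp2b10: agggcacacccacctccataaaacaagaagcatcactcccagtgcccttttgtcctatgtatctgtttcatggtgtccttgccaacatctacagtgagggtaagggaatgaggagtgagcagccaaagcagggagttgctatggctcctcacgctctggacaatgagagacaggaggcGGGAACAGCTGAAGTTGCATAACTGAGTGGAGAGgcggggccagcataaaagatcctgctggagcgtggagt
Cyp2b23: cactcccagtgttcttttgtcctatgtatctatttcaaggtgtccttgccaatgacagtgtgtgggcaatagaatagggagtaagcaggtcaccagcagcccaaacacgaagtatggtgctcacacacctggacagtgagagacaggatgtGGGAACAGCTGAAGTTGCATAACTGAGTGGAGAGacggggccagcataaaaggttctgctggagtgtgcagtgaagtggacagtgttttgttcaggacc
Cyp2b9: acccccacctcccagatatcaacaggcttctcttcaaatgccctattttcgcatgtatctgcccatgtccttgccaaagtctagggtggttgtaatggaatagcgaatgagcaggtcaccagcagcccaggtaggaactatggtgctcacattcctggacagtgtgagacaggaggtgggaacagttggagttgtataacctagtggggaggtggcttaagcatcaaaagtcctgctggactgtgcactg
Only exact runs were sought. The exact 34-base run is absent from the Cyp2b9 window, whose longest shared run was 12 bases with Cyp2b10 and 20 with Cyp2b23. That window does hold a similar stretch with substitutions, which begins gggaacag. A link of the run to induction was not tested. The motif AGGTCA, the core of many nuclear receptor sites, was searched on both strands. It occurs 1 time each in the windows of Cyp2b23 and Cyp2b9 and not in that of Cyp2b10, and 14.02% of 32851 RefSeq promoters of this length hold it. A match of letters is a description and not a binding site.

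Genes of the Cyp2c family, which oxidise drugs, arachidonic acid and steroids, rose as well. Cyp2c55 measured 10.84, 11.09, 11.42 and 10.23 at 150 ppm against 4.43, 4.67, 5.49 and 5.29 in the controls (log2 change 5.95 ± 0.38 SE, adjusted p = 1.85e-19 by limma), with 4.10 to 6.16 over 5 scalings. Controls 41A and 82B were the lower pair here, and without them the change was 5.51. Cyp2c50 read 11.58, 11.94, 11.97 and 11.31 against 8.9996, 9.33, 9.80 and 9.29, a log2 change of 2.35 ± 0.31 SE (adjusted p = 3.06e-07 by limma). Cyp2c37 read 10.86, 10.52, 10.93 and 10.34 in the controls and 12.22, 12.46, 12.51 and 12.16 at 150 ppm. Its log2 change was 1.68 ± 0.20 SE (adjusted p = 2.64e-08 by limma). Cyp2c50 and Cyp2c37 each counted as detected in 1 of 4 controls and 4 of 4 treated samples. The groups of samples did not overlap in any of the 3 genes.

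Cyp2c29, another phenobarbital-inducible member, failed the detection filter and was not among the genes tested. It was looked up after its values were seen. Its level was 8.52, 9.92, 9.05 and 7.71 at 150 ppm against 5.11, 5.61, 5.598 and 4.84 in the controls, again without overlap, and the phthalate controls ran from 4.801 to 6.13. In a fit of all genes without the filter the log2 change was 3.50 ± 0.48 SE (adjusted p = 1.19e-06 by limma). The detection p-values of this gene were at least 0.0688 on these 8 arrays whatever its level, so it counted as not detected there.

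Cyp3a11, the main drug-metabolising P450 of family 3 in mouse liver and a target of PXR and CAR, measured 12.63, 12.57, 12.81 and 12.23 at 150 ppm. In the controls it was 9.10, 8.93, 8.54 and 9.49, well below the treated samples, and the log2 change was 3.54 ± 0.58 SE (adjusted p = 3.38e-05 by limma). Against the phthalate controls the change was 3.20. Cyp2a5, a coumarin hydroxylase, rose from 9.17, 8.72, 9.07 and 8.77 to 10.66, 10.49, 10.44 and 10.19, a log2 change of 1.51 ± 0.31 SE (adjusted p = 0.000616 by limma). Cyp1a2, best known as a target of the aryl hydrocarbon receptor AHR, rose from 11.48, 10.95, 11.22 and 11.24 to 12.24, 11.97, 12.49 and 12.28, a log2 change of 1.02 ± 0.22 SE (adjusted p = 0.00166 by limma). It was the only called gene among 6 tested AHR targets, against 11.6% called over all genes. Cyp2d12 rose by 1.75 ± 0.31 SE from a low level, with 6.04 to 7.15 at 150 ppm and 4.37 to 5.28 in the controls. It rose by 1.44 against the phthalate controls. Over 24 alternatives its change ran from 0.31 to 1.97, and the call was lost with the background of neqc.

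On a chosen list of 27 tested P450 genes of families 2 and 3, which does not hold Cyp2d12, 7 were called higher and 1 lower, against 4.77% higher and 6.87% lower over all genes, and the same counts of rises were reached without controls 41A and 82B and against the phthalate controls. The median of the list was a log2 change of 0.16 against 0.00 for all genes tested, so most members moved little. The member called lower was Cyp2f2, a P450 of periportal hepatocytes and airway cells, at 12.87 to 13.07 against 13.09 to 13.52 (log2 change -0.31), and no member was called lower with the other 2 sets of controls. Genes that supply electrons and heme to P450 enzymes gave 2 calls among 19, against 11.6% over all genes. Por, the P450 reductase, read 7.80, 7.58, 8.44 and 7.70 at 150 ppm and 7.35, 7.12, 7.53 and 8.21 in the controls, with overlap (log2 change 0.34 ± 0.35 SE, adjusted p = 0.557 by limma). Alas1, the rate-limiting enzyme of heme synthesis, spanned 11.14 to 12.26 at 150 ppm and 9.82 to 12.29 in the controls (log2 change 0.70 ± 0.58 SE, adjusted p = 0.453 by limma). Of the list 1 gene was higher, the heme-binding Pgrmc1 (1.80 ± 0.62 SE), and 1 lower, the biliverdin reductase Blvra (-0.33 ± 0.12 SE), and neither was called with the other sets of controls. The receptor gene Nr1i3 itself read 7.05 to 8.22 at 150 ppm and 7.90 to 8.24 in the controls (log2 change -0.30 ± 0.31 SE, adjusted p = 0.568 by limma).

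Phase II enzymes attach glutathione, glucuronic acid, sulfate, acyl or methyl groups to drugs and their metabolites. Among 47 phase II genes 6 were higher and 1 lower, against 4.77% higher and 6.87% lower over all genes, with a median log2 change of 0.23. Gstt3, a theta-class glutathione transferase, measured 9.69, 10.31, 9.79 and 9.28 at 150 ppm against 8.30, 8.05, 8.27 and 7.75 (log2 change 1.67 ± 0.31 SE, adjusted p = 0.000202 by limma), and was the member also called against the phthalate controls. The glucuronosyltransferase Ugt2b34 (2.26 ± 0.66 SE), the thiopurine methyltransferase Tpmt (1.08 ± 0.30 SE) and the transferase Gstm1 (0.98 ± 0.26 SE) rose against the phenobarbital controls, with changes of 1.32, 0.20 and 0.85 against the phthalate controls. All 3 calls were lost without controls 41A and 82B, where the changes were 2.47, 0.94 and 0.79. Gstm3, a glutathione transferase often listed as a CAR target, was near background in both groups, at 4.45 to 4.75 against 4.32 to 4.55 (log2 change 0.23 ± 0.17 SE, adjusted p = 0.398 by limma).

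Of 51 other phase I enzymes 3 were higher and 2 lower, against 4.77% higher and 6.87% lower over all genes. The aldehyde dehydrogenases Aldh1a1 and Aldh1a7 rose by 1.73 ± 0.47 SE and 1.51 ± 0.41 SE. Aldh1a7 read 9.53, 10.75, 9.85 and 9.83 against 8.18, 8.79, 8.95 and 7.97 without overlap. The carboxylesterase Ces2e rose by 1.48 ± 0.30 SE, and the flavin monooxygenase Fmo2, near background, fell by 0.65 ± 0.18 SE. Against the phthalate controls the changes of Aldh1a1, Aldh1a7 and Ces2e were 1.14, 0.64 and 0.76 and that of Fmo2 was -0.19, and none was called. Without controls 41A and 82B the calls of Aldh1a1 (1.66), Aldh1a7 (1.52) and Fmo2 (-0.22) were lost and that of Ces2e was kept.

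Among 19 transporters 4 were higher and 1 lower, against 4.77% higher and 6.87% lower over all genes. Abcc3, which exports glucuronides across the sinusoidal membrane into blood, measured 10.14, 10.27, 10.08 and 9.47 at 150 ppm and 7.97, 6.84, 8.14 and 7.995 in the controls (log2 change 2.27 ± 0.32 SE, adjusted p = 1.36e-06 by limma). Control 82B lay apart below the other 3, and without it and 41A the change was 1.92. Abcc3 was the transporter also called against the phthalate controls, by 1.92. The uptake transporters Slco2b1 (0.72 ± 0.20 SE) and Slc10a1 (0.98 ± 0.31 SE) were higher and the organic anion transporter Slc22a7 lower (-1.15 ± 0.23 SE), with changes of 0.49, 0.92 and -0.49 against the phthalate controls. Without controls 41A and 82B the calls of Slco2b1 (0.62) and Slc10a1 (0.94) were lost and that of Slc22a7 (-1.08) was kept. The list then had 3 rises and 1 fall, with rises of transporters not named here beside that of Abcc3.

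Of 39 other genes known to respond to CAR or PXR activators, 2 were higher and 1 lower, against 4.77% higher and 6.87% lower over all genes, with a median log2 change of 0.01. Ccn4 read 6.36, 6.05, 6.82 and 6.05 at 150 ppm and 4.56, 4.77, 5.11 and 5.37 in the controls (log2 change 1.38 ± 0.25 SE, adjusted p = 0.000159 by limma). It counted as detected in 1 of 4 controls, and its log2 change ran from 0.23 to 1.64 over 5 scalings, so its size depends on the scaling. Insig2, which retains the sterol sensor SCAP in the endoplasmic reticulum, rose from 10.35 to 10.60 in the controls to 11.25 to 11.35 (0.82 ± 0.24 SE), and its change was 0.45 against the phthalate controls. Ppargc1a, a coactivator of gluconeogenic genes, fell by 1.23 ± 0.36 SE, with 7.14, 7.37, 6.55 and 5.69 at 150 ppm against 7.72 to 8.18, and its change was -0.37 against the phthalate controls. The calls of Insig2 (0.82) and Ppargc1a (-1.14) were lost without controls 41A and 82B. Pnliprp1 (5.31, 5.85, 5.71 and 5.07) and 1700067K01Rik (6.02, 5.87, 6.12 and 5.26) were above background in the 4 treated samples and in none of the controls, so their rises are bounds of at least 1.84-fold and at least 2.11-fold (adjusted p = 5.47e-05 and 0.000111 by limma) in the signal as scaled here. Over 5 scalings the fitted folds went down to 1.09 and 1.10, and both calls were lost with the background of neqc.

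Cell-cycle genes, which CAR activation can raise in mouse liver, gave 3 rises and 5 falls among 53 tested, against 4.77% higher and 6.87% lower over all genes, with a median log2 change of 0.06. Lmnb1 (0.90 ± 0.20 SE) and the replication helicase subunit Mcm6 (0.79 ± 0.24 SE) were higher. Thymidine kinase Tk1 (-0.91 ± 0.28 SE) and the helicase subunit Mcm7 (-0.70 ± 0.25 SE) were lower. Lmnb1 counted as detected in 0 of 4 controls and 2 of 4 treated samples, with detection p-values not all on the grid of the negative controls. Against the phthalate controls no cell-cycle gene was called, and the 4 changed by 0.36, 0.39, 0.05 and -0.55. All 4 calls were lost without controls 41A and 82B. Ccnd1, cyclin D1, spanned 7.23 to 8.44 at 150 ppm and 7.46 to 8.33 in the controls (log2 change 0.16 ± 0.39 SE, adjusted p = 0.838 by limma). Gadd45b, an early CAR-responsive stress gene, was near background except in sample 89B, which read 5.15 against 4.38 to 4.46 in the other 3.

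The remaining large changes were not called against the phthalate controls. Cyp4a14, a fatty acid hydroxylase and PPARA target, was the widest of them: 7.42, 10.33, 7.84 and 9.45 at 150 ppm against 6.19, 4.37, 5.62 and 6.55, a log2 change of 3.09 ± 0.97 SE (adjusted p = 0.0279 by limma), and 1.78 against the phthalate controls. PPARA targets as a list gave 4 rises and 2 falls among 61, against 4.77% higher and 6.87% lower over all genes, with a median of 0.00. The call of Cyp4a14 was lost without controls 41A and 82B, where the change was 2.67. The unnamed transcript 4931406C07Rik (2.27), the proteasome deubiquitinase Psmd14 (2.07), the arrestin-domain protein Arrdc3 (2.02) and the mitochondrial elongation factor Gfm1 (1.87) completed the 12 largest rises without overlap, with changes of 1.46, 0.64, 0.51 and 0.65 against the phthalate controls. Of these 4, Gfm1 was called without controls 41A and 82B. Psmd14 and Gfm1 were at background on the dimmest array, 41A (4.40 and 4.53), and at 5.79 to 7.37 on the other controls.

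The 12 largest falls without overlap were Dnaic1, Mospd3, Selenow, Rps23rg1, Ip6k2, Oscar, Rtn3, Csad, H2ac23, Steap3, Asgr2 and Ccdc65, and none was called against the phthalate controls. Dnaic1, an axonemal dynein chain of cilia, fell from 8.92, 8.98, 8.62 and 8.79 to 6.42, 5.22, 7.67 and 7.66 (log2 change -2.09 ± 0.53 SE), and by 0.93 against the phthalate controls. Csad, the enzyme that makes the taurine precursor hypotaurine, fell from 8.66, 7.94, 8.46 and 8.46 to 6.91, 7.02, 6.46 and 6.71 (-1.60 ± 0.37 SE), and by 0.90 against the phthalate controls. Rps23rg1 and the ferrireductase Steap3 were detected on every control array and on no treated array, with falls of at least 3.09-fold and at least 2.83-fold against all 4 controls in the signal as scaled here. Without controls 41A and 82B the log2 changes were -1.14 and -1.35, and over 5 scalings the fitted folds went down to 1.21 and 1.15. Rps23rg1 changed by -0.23 against the phthalate controls. Steap3 read 6.61, 5.84, 6.01 and 5.80 in the controls and 4.48 to 4.67 at 150 ppm, and its change was -0.32 against the phthalate controls. Asgr2, a subunit of the hepatocyte asialoglycoprotein receptor, fell by 1.48 ± 0.37 SE and by 1.17 against the phthalate controls. Without controls 41A and 82B the calls of Dnaic1 (-1.97) and Asgr2 (-1.38) were lost and that of Csad (-1.68) was kept.

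Both falls called with every set of controls were under 1 on the log2 scale. Ddx3y, a Y-linked RNA helicase, measured 8.51, 8.64, 8.64 and 8.37 at 150 ppm against 9.57, 9.44, 9.61 and 9.51 in the controls (log2 change -0.99 ± 0.14 SE, adjusted p = 3.57e-06 by limma), and -0.55 against the phthalate controls. Tmem234, a membrane protein, measured 9.44 to 9.65 against 10.11 to 10.24 (log2 change -0.63 ± 0.15 SE, adjusted p = 0.00393 by limma). Its call was lost with either centring of the arrays. With each array centred on its median, which moved the median of all genes by 0.55, Ddx3y and Tmem234 turned to 0.07 and 0.40 and neither was called.

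Genes of cholesterol synthesis and its control had the highest list median against the phenobarbital controls, a log2 change of 0.55 with 18 of 20 genes above 0, and 2 called higher: the sterol carrier Stard4 (1.003 ± 0.29 SE) and the sterol reductase Tm7sf2 (0.72 ± 0.23 SE). The median was 0.499 without controls 41A and 82B and -0.00061 against the phthalate controls, where no member was called. Chaperones of the endoplasmic reticulum gave 4 rises (among them Pdia6 by 1.67 and Pdia4 by 0.97) and 1 fall among 27, with medians of 0.20 against the phenobarbital and -0.01 against the phthalate controls. Interferon and MHC genes gave 3 rises among 32, with medians of 0.27 and -0.09. Over all genes tested 4.77% were higher and 6.87% lower. In these 3 lists no member was called against the phthalate controls, and without controls 41A and 82B Stard4 and Pdia4 kept their calls while Tm7sf2 and Pdia6 lost theirs.

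Genes of pericentral hepatocytes, the cells around the central vein, gave 8 rises and 1 fall among 34. Over all genes 4.77% were higher and 6.87% lower, and the list median was 0.35. Against the phthalate controls, where 0.203% of all genes were called, the list gave 4 rises and a median of 0.18. Those 4 were Cyp2c50, Cyp2c37, Cyp2a5 and Cyp1a2, so the list shares these 4 rises with the P450 genes above. Of 32 periportal genes 2 were lower, Igf1 (-0.68 ± 0.15 SE) and Cyp2f2, with a median of -0.14, and neither was called against the phthalate controls. Of 23 gluconeogenic genes the call was Ppargc1a. Genes with no call in their list were those of bile acid synthesis (17 tested), NRF2 targets (23), acute phase proteins (31) and major urinary proteins (6). At an unadjusted p under 0.05 these lists held 0, 3, 0 and 0 rises and 0, 3, 1 and 1 falls in limma. Cyp7a1, the rate-limiting enzyme of bile acid synthesis, read 7.84, 8.15, 7.29 and 6.45 at 150 ppm and 9.29, 9.65, 8.68 and 7.99 in the controls (log2 change -1.50 ± 0.76 SE, adjusted p = 0.186 by limma), with overlap. The other lists had between 1 and 5 calls each, against 11.6% of genes called over all genes tested. They covered clock genes (2 rises, 1 fall of 18), p53 targets (2 and 1 of 18), amino acids and urea (3 and 2 of 44), coagulation and complement (2 and 2 of 34), fatty acid synthesis (1 and 1 of 25), male-biased genes (1 and 1 of 23) and female-biased genes (2 and 1 of 12).

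**Figure D3:**
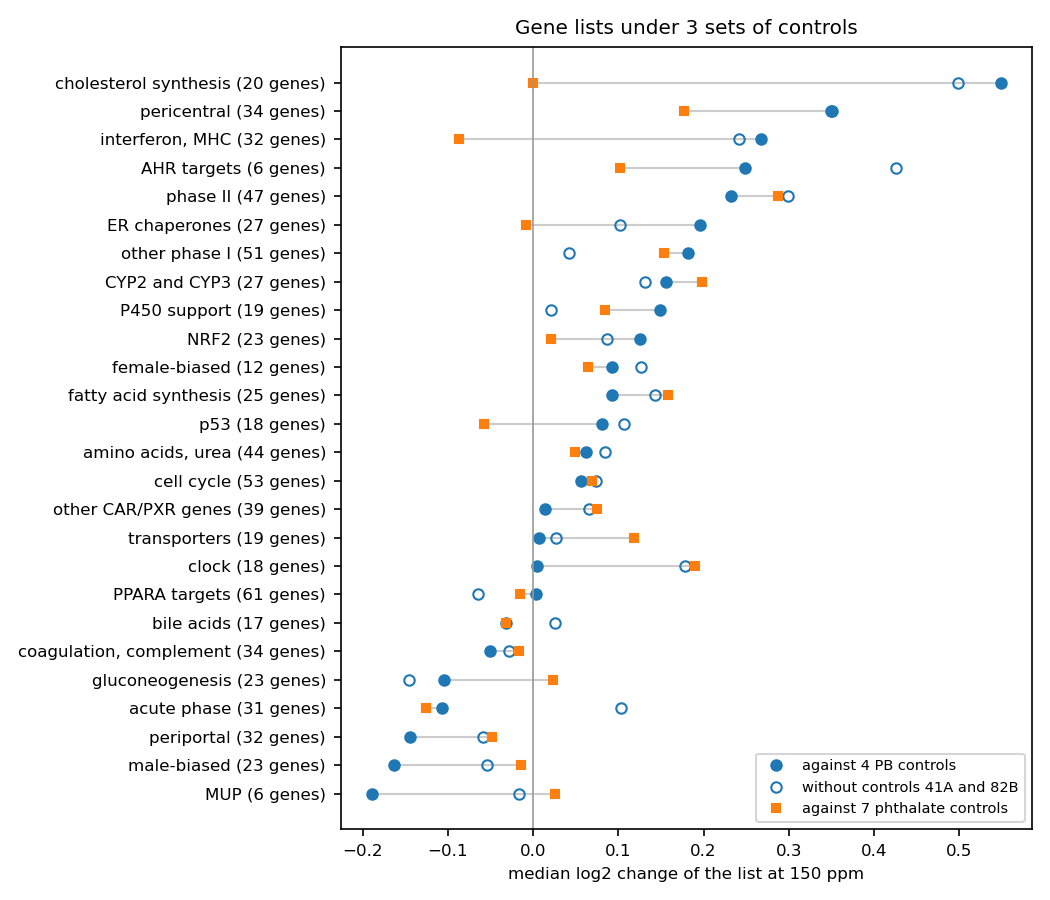
Median log2 change of each gene list at 150 ppm, with filled circles against the 4 phenobarbital controls, open circles without controls 41A and 82B, and squares against 7 phthalate controls; the number of tested genes is beside each name. The medians of phase II and CYP2 and CYP3 genes stay above 0 with all 3. So do those of many other lists, among them pericentral genes, NRF2 targets and fatty acid synthesis. Those of cholesterol synthesis, interferon and endoplasmic reticulum chaperones lie near or below 0 against the phthalate controls.

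Markers of hepatocytes were detected in both groups, 6 of 7 on all 8 arrays, and none was called. Their mean level ran from 10.83 to 11.39 in the controls and from 10.55 to 11.14 at 150 ppm. The mean hides differences: Alb averaged 7.31 in the controls and 6.26 at 150 ppm, and Fgb 5.91 and 5.47. Of the 7 markers 2 had a log2 change above 0. Markers of Kupffer cells (9 tested), endothelium (9), cholangiocytes (5), lymphocytes (7), neutrophils (5), red cells (7) and gallbladder or gut (1) had no call either. Of 5 pancreatic enzyme genes 3 were called lower at 150 ppm, against 6.87% over all genes, and Ctrb1 (-0.28) and Cpa1 (0.05) did not pass the test. Their mean level was 6.07 to 6.30 in the controls and 5.55 to 5.79 at 150 ppm. Cela1 fell from a mean of 10.68 to 9.88 and Cela2a from 6.20 to 4.88. The phthalate controls lay at 5.59 to 5.90, with a median list change of -0.00096 against them. No pancreatic gene was called without controls 41A and 82B, and the part of these genes in the falls was not tested. Among 10 stellate cell markers Lrat was lower (-1.14 ± 0.35 SE). Among 2 adipocyte markers Lep was lower, by at least 1.43-fold in the signal as scaled here (adjusted p = 0.0212 by limma). Lep was above background in 2 of 4 controls and 0 of 4 treated samples, and the groups overlapped. Over 5 scalings its fitted fold went down to 1.04. Neither Lrat nor Lep was called without 41A and 82B or against the phthalate controls. In bulk liver RNA fewer cells of a type and less RNA per cell cannot be told apart.

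The doses were compared with each other without the controls. Arrays at 75 ppm were dim too, with mean signals of 242, 301, 180 and 373 on 13B, 13C, 20C and 20B. Those at 150 ppm had 344 to 406. Genes detected made up 40.5% to 45.3% at 75 ppm, and the part of low signal was not tested. With each array centred on its median, 103 genes were higher and 2 lower at 150 than at 75 ppm. Against 75 ppm, 8 genes differed at 150 ppm (0.0706% called), 3 higher and 5 lower. Cyp2b10 was 9.92, 7.72, 8.62 and 10.30 at 75 ppm, below every sample at 150 ppm, and rose by 2.40 ± 0.28 SE (adjusted p = 5.94e-08 by limma). Cyp2b23 was 7.38, 4.56, 6.51 and 7.99 at 75 ppm, a difference of 2.89 ± 0.43 SE (adjusted p = 2.87e-05 by limma). Cyp2c55 was 9.24, 8.32, 8.85 and 9.34, a difference of 1.96 ± 0.39 SE (adjusted p = 0.00577 by limma). The second sample at 75 ppm, 13C, had the lowest value in all 3 genes, and its Cyp3a11 level of 8.97 lay within the range of the controls, while the other 3 read 11.28 to 11.93. Cyp3a11 was 1.56 ± 0.59 SE higher at 150 than at 75 ppm, which did not pass the test (adjusted p = 0.359 by limma).

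The 5 genes lower at 150 than at 75 ppm were Zbtb7a (-1.61 ± 0.31 SE), Tbc1d20 (-1.34 ± 0.23 SE), Ddx6 (-1.30 ± 0.22 SE), Chsy3 (-0.95 ± 0.18 SE) and Ifngr2 (-0.72 ± 0.16 SE). They encode a transcriptional repressor, a Rab GTPase-activating protein, an RNA helicase of P-bodies, a chondroitin synthase and a chain of the interferon gamma receptor. All 5 calls were lost without sample 13C, where only 2 genes, Cyp2b10 and Cyp2b23, were called.

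From 150 to 300 ppm 1 gene was called (0.00883%), 1700067K01Rik, which went from 6.02, 5.87, 6.12 and 5.26 to 7.38, 6.96, 7.13 and 6.13 (1.08 ± 0.20 SE, adjusted p = 0.0137 by limma). No gene was called lower by limma, with 59 lower at an unadjusted p under 0.05. The call was lost without sample 89B at 150 ppm, without 38C, 38A or 15A at 300 ppm, with median centring, with the background of neqc and with the replicate block in a fit of the phenobarbital samples. Cyp2b10 stood at 12.11 ± 0.16 (SD, n = 4) at 300 ppm and 12.22 ± 0.22 (SD, n = 4) at 600 ppm against 11.54 ± 0.14 (SD, n = 4) at 150 ppm, differences of 0.56 (95% interval -0.0020 to 1.13) and 0.67 (0.11 to 1.24) that did not pass the adjusted test.

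From 150 to 600 ppm 17 genes were called (0.15%), all higher, and limma called none lower, with 94 lower at an unadjusted p under 0.05. Gsta1, an alpha-class glutathione transferase, was 5.10, 5.61, 5.35 and 4.32 at 150 ppm and 9.36, 8.44, 7.60 and 5.75 at 600 ppm (2.69 ± 0.48 SE, adjusted p = 0.000618 by limma). Akr1b7, an aldo-keto reductase known as a CAR and PXR target, was 4.83, 4.90, 4.83 and 4.88 at 150 ppm and 8.41, 8.45, 6.88 and 5.69 at 600 ppm (2.50 ± 0.27 SE, adjusted p = 9.25e-10 by limma). Pnliprp1 (2.23 ± 0.19 SE) and 1700067K01Rik (1.87 ± 0.20 SE) followed. The serine protease Tmprss7 was called too, at 7.36, 6.80, 5.70 and 4.81 at 600 ppm, but it was above background in 0 of 4 samples at 150 ppm, so its fitted difference is not a measured size. Gsta1, Akr1b7 and Tmprss7 did not pass the test at 150 ppm against the controls (log2 changes of 0.66, 0.48 and 0.17), and Gstm3, 1.12 ± 0.18 SE higher at 600 than at 150 ppm, was also among the 17. Within the 600 ppm group the values spread widely, with an SD of 1.54 for Gsta1 and 1.33 for Akr1b7, and sample 98B was the lowest for both.

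**Figure D4:**
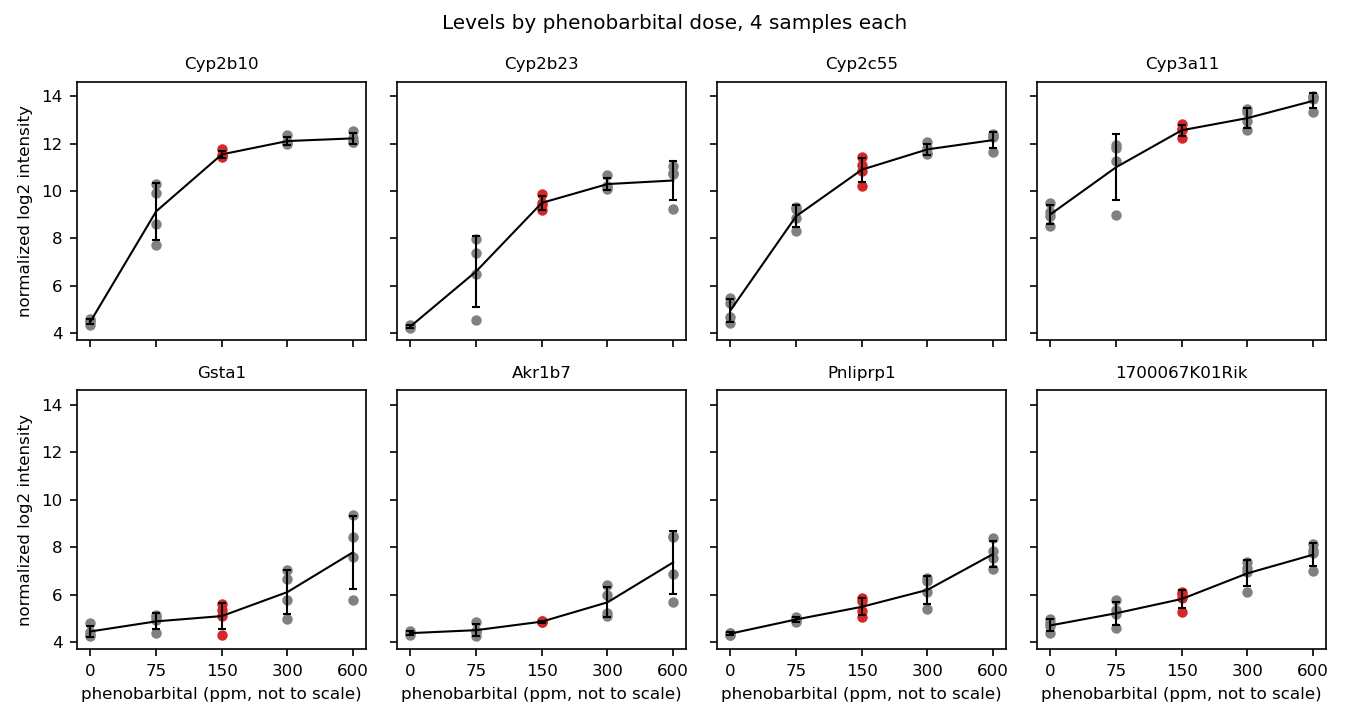
Normalized log2 intensity by phenobarbital dose for 8 genes, with 1 point per sample, 4 samples per dose, and lines and bars for the mean and SD; doses are evenly spaced and not to scale, and 150 ppm is in red. Cyp2b10, Cyp2b23 and Cyp2c55 differ between 75 and 150 ppm, while Gsta1, Akr1b7, Pnliprp1 and 1700067K01Rik differ between 150 and 600 ppm.

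The comparisons of the other doses with the controls share the control arrays, so their values stand side by side as a description. Cyp2b10 changed by 4.64, 7.05, 7.61 and 7.72 on the log2 scale at 75, 150, 300 and 600 ppm. These are fitted values and not measured sizes, since Cyp2b10 was not above background in any control. Cyp2c55 changed by 3.99, 5.95, 6.81 and 7.20. Cyp3a11 changed by 1.99, 3.54, 4.06 and 4.78, and Abcc3 by 0.997, 2.27, 2.69 and 3.17. Cyp2c37 spanned less, with 1.13, 1.68, 1.72 and 1.88. Por, uncalled at 150 ppm, changed by 0.15, 0.34, 1.11 and 1.76 over the same doses.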

How the data were processed

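Trizol and RNeasy extraction with DNase gave liver RNA, which was hybridised as biotin cRNA to 1-colour Illumina bead arrays, per the labels' protocols. Each gene and array has an average bead intensity in the table the authors deposited (per the file headers), on a linear scale and neither normalized nor background-corrected as judged from its values. A deposited detection p-value stands beside it. A deposited matrix holds an intensity normalized by the authors by a method not given in the sources used here. Probe positions are not used here.

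From these, each array's background mean and SD were taken from the detection p-values on the 798-step grid of negative controls (50 bins), and limma 3.58.1 (R 4.3.3) subtracted background by normexp. Over the 77 arrays 79.1% of the detection p-values lay on that grid, and for the other values detection may be misjudged. An offset of 16, log2 and quantile normalization followed. Of 18138 array IDs, 11324 with a detection p under 0.05 on at least 3 of the 77 arrays were tested. The limma model held 18 group means over the 77 samples, because the 8 samples alone give few residual degrees of freedom. The label number was a random block (correlation 0.099), with 59 residual degrees of freedom. In the fit of both groups alone, which called 203 genes, that correlation was 0.373, with 6 residual degrees of freedom. The procedure was tested on simulated data with independent noise. These data held no correlation within label numbers and no dim control arrays, so the effect of either on the calls was not tested there. Array symbols were updated through RefSeq, and 904 IDs kept their own name. Precision depends on how many arrays a group has; signal over background stands for depth. Bounds for genes not above background in a group use the lowest detected signal of each array.

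The members, the gene lists and the rule for named genes were chosen with earlier results of these data known. A member of 1 list is not reported here and was left out of that list. Named were a panel (Cyp2b10, Cyp2c55, Cyp3a11, Gstm3, Por, Alas1, Nr1i3, Abcc3, Aldh1a7, Cyp7a1, Ccnd1, Gadd45b), the 12 largest rises and falls without overlap, up to 4 called members of each list, and up to 5 rises and 5 falls per dose comparison; genes called with the phthalate controls were named after their values were seen. Alternatives changed the scaling, background, filter, block, samples in the fit, array weights and controls.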

Additional observations from a re-analysis of the deposited data

Results flagged for a closer look

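Some values stood apart from the other samples of their group by Dixon's criterion. Among 64 groups of 4 values, those of the panel and of the largest rises and falls, 3 had such a value, about what chance gives at 1 in 20. Abcc3 was 6.84 in control 82B, below the other 3 controls. Gadd45b was 5.15 in sample 89B at 150 ppm. Gfm1 was 4.53 in control 41A, the dimmest array. The share of genes detected was 43.6% in sample 2B, below the other 3 at 150 ppm.

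Differences between doses were tested directly. From 75 to 150 ppm Cyp2b23 differed by 2.89, Cyp2b10 by 2.40 and Cyp2c55 by 1.96 on the log2 scale, and Zbtb7a by -1.61, Tbc1d20 by -1.34, Ddx6 by -1.30, Chsy3 by -0.95 and Ifngr2 by -0.72. From 150 to 300 ppm 1700067K01Rik differed by 1.08. From 150 to 600 ppm Gsta1 differed by 2.69, Akr1b7 by 2.50, Pnliprp1 by 2.23, 1700067K01Rik by 1.87 and Tmprss7 by 1.66, a fitted value against a group not above background.

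A signal outside the genes tested was Cyp2c29, 3.50 higher at 150 ppm than in the controls on the log2 scale. Of the 6814 IDs left out by the detection filter, 231 would have been called in a fit of all genes, 14 higher and 217 lower.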

How the results depend on the processing

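Against the phenobarbital controls 1318 genes were called at 150 ppm. The count was 5268 with each array centred on its median, 5135 with each array centred on the median of the tested genes (added after seeing the data; 1173 higher and 3962 lower, median of all genes -0.18), 203 with both groups alone, 693 with the phenobarbital samples alone, 547 with samples of 1 number averaged, 489 without controls 41A and 82B, and 23 with the phthalate controls. With the REP number as a replicate block in a fit of the phenobarbital samples alone it was 925, beside the 693 of those samples with the label number as the block. Leaving out 1 sample gave 613 to 1441, with 613 without control 41A, 767 without sample 2C and 833 without 89C. Of the genes called with every set of controls, 10 rises (Cyp2b10, Cyp2c55, Cyp2b23, Cyp3a11, Cyp2c50, Abcc3, Cyp2c37, Gstt3, Cyp2a5 and Cyp1a2) and Ccn4 were called under all 24 alternatives. The log2 change of Ccn4 went down to 0.23 among them. Cyp2d12 was lost with the background of neqc, Pnliprp1 with that and with centring on the tested genes, and 1700067K01Rik with those and with both groups alone.

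From 75 to 150 ppm 8 genes were called. The count was 105 with median centring, 25 with neqc's background, 14 with the deposited matrix, 38 without a block, 4 with the replicate block in the phenobarbital samples alone, 25 with array weights, and 2 to 92 without 1 sample (20 without 13B, 2 without 13C, 92 without 20C, 15 without 20B). From 150 to 300 ppm the 1 call became 0 with median centring and with the same replicate block and samples, and 0 to 3 without 1 sample (3 without 15B). From 150 to 600 ppm the 17 calls became 27 with neqc's background, 3 with the same replicate block and samples, and 9 to 26 without 1 sample (9 without 23B, 11 without 23A, 26 without 98B). The REP numbers are shared within groups and mark no stated pairing: REP 1 minus REP 2 differences of the 150 ppm and control groups correlated at -0.0788 across genes, which are not independent replicates. Over all pairs of phenobarbital groups the correlation ran from -0.38 (150 and 600 ppm) to 0.20 (300 and 600 ppm).

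Signs turned for some named genes (150 ppm against the phenobarbital controls). With median centring, which raised the median of all genes by 0.55, the log2 changes were 0.77 for Nr1i3, 0.74 for Blvra, 0.12 for Tk1, 0.12 for F10, 0.43 for F12, 0.51 for Tkt, 0.051 for Selenbp2, 0.19 for Cela1, 0.28 for Bax, 0.035 for Igf1, 0.16 for Cyp2f2, 0.29 for Gpd1, 0.077 for Zbtb7a, 0.21 for Tbc1d20, 0.22 for Ddx6, 0.44 for Ifngr2, -0.034 for Cyp2b13, 0.40 for Tmem234, 0.065 for Ddx3y and 0.60 for BC004728. With centring on the tested genes they were -0.60 for Gstm3, 0.044 for Nr1i3, -0.63 for Gadd45b, 0.0088 for Blvra, -0.0178 for Npas2, -0.13 for Gsta1, -0.32 for Akr1b7, -0.70 for Tmprss7, -0.54 for Cyp2b9 and -0.77 for Cyp2b13. With the phthalate controls they were -0.082 for Ccnd1, 0.0498 for Tk1, -0.083 for Pdia3, 0.0027 for Tkt and -0.23 for Psmb9. The causes were not tested.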
